A study of Mus musculus with 4 samples.

Results

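The forkhead genes were the protein-coding genes whose symbol was Fox followed by 1 letter and a number. There were 44 of them in the gene models of the mm10 mouse genome, and the annotation of the PRDM6 peak list named 13 as the gene nearest to at least 1 peak. These 13 genes held 56 of the 13977 peaks of the list. The peaks came from ChIP-Seq of cultured smooth muscle cells (SMCs) of the outflow tract, where blood leaves the developing heart, isolated from late-gestation mouse embryos. The stage is stated as both E17.5 and E18.5. The cell culture methods give the embryos as Prdm6 fl/fl, with no Cre named for the ChIP-Seq experiment. Cells of both groups were infected with a lentivirus meant to overexpress FLAG-tagged PRDM6, a PR domain protein with zinc fingers, so the assay recorded the tagged protein and not the endogenous one. The PRDM6 ChIP group held 2 libraries precipitated through the tag, and the Input group held 2 libraries of chromatin of the same kind without precipitation. The study calls the precipitations independent replicates but also says that they were made from the same sample, and the labels do not say that cultures were separate. Input libraries served as the control in calling peaks, and the list gave no Input level to set beside a peak. A peak list holds no RNA level, so the labelled SMC identity and the expression of the forkhead genes were not analysed here.

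Forkhead proteins bind DNA through a winged-helix domain, and the family is divided into lettered subfamilies. Foxc1 and Foxc2 act in mesoderm and neural crest and are required for the aortic arches and the outflow tract. Foxf1 and Foxl1 are genes of the mesenchyme that respond to hedgehog signalling. Foxa2 opens chromatin in endoderm, Foxp1 and Foxp2 repress transcription in heart, lung and brain, the FoxO proteins are held out of the nucleus by insulin signalling, and Foxm1 acts in dividing cells.

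The sequences at the summits of the strongest peaks are shown because the values below refer to them. They are from the GRCm38 genome (mm10), plus strand, 100 bp to each side of the summit of the matched peak. Capitals mark an AP-1 (TGACTCA), TEAD (GGAATG) or forkhead (GTAAACA) motif on either strand, and a window with no capitals held none of these letters. The first 3 windows, chr6:15257403-15257603, chr6:98775776-98775976 and chr8:121196180-121196380, belong to the only forkhead peaks that passed the reproducibility limit of 0.05.
Foxp2: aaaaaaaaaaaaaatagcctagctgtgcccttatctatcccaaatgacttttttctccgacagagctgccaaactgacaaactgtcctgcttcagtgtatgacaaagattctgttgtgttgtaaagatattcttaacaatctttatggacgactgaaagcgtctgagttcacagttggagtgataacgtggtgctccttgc
Foxp1: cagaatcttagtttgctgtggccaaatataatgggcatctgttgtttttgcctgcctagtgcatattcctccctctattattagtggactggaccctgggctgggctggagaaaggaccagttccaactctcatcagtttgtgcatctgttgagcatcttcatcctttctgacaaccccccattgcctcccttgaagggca
Foxl1: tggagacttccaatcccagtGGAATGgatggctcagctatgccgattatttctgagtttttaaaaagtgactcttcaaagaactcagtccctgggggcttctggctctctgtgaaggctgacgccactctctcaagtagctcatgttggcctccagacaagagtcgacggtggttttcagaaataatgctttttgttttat

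The windows chr2:148186527-148186727, chr19:16898568-16898768, chr13:31518504-31518704 and chr10:42278085-42278285 hold the strongest peaks of 4 further genes, each of which lies outside its gene.
Foxa2: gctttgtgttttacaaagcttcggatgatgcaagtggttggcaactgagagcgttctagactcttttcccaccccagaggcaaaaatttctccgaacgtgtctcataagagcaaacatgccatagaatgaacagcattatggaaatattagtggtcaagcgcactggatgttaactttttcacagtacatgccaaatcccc
Foxb2: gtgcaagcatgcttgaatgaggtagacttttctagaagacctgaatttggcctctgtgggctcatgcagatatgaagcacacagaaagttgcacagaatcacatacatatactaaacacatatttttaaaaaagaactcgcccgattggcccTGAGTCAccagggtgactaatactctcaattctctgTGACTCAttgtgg
Foxq1: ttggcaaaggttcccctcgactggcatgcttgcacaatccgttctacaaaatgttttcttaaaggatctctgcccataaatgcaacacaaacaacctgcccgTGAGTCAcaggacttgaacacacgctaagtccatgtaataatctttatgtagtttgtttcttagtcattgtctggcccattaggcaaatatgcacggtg
Foxo3: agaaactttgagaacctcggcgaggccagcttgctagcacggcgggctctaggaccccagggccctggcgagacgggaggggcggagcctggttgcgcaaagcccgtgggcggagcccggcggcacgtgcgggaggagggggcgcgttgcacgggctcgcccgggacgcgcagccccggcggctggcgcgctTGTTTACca

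The windows chr8:121117106-121117306 and chr17:88462978-88463178 are shown because both peaks lay on coding sequence.
Foxc2: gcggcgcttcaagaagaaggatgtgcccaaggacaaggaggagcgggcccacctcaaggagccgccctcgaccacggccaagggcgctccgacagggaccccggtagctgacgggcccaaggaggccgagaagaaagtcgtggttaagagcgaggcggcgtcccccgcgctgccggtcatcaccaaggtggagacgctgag
Foxn2: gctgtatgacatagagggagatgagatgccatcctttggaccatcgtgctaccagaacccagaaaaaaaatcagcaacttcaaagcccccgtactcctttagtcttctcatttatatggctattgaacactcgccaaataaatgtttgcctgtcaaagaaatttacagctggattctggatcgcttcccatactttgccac

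The number of peaks per gene was uneven. Foxp1 held 17 peaks, 30.4% of all forkhead peaks, and only 13 protein-coding genes of the genome held more. Foxa2 and Foxc1 held 7 peaks each, Foxp2 held 5 and Foxn3 held 4. Foxb2, Foxc2, Foxl1 and Foxn2 held 3 each, and Foxj2, Foxm1, Foxo3 and Foxq1 held 1 each. The share of forkhead genes with a peak was 29.5% (13 of 44, 95% Wilson interval 18.2 to 44.2), beside 19.9% of all 21728 protein-coding genes. The share with 3 or more peaks was 20.5% (9 of 44), beside 6.38% of all genes. A promoter peak, which is one the annotation placed within 3 kb of a transcription start site (TSS), was present at 9 of 44 genes (20.5%), beside 8.2% of all genes. Intervals cover counting error only. Genes of a family and peaks of 1 gene share their source, so no test was made.

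**Figure D1:**
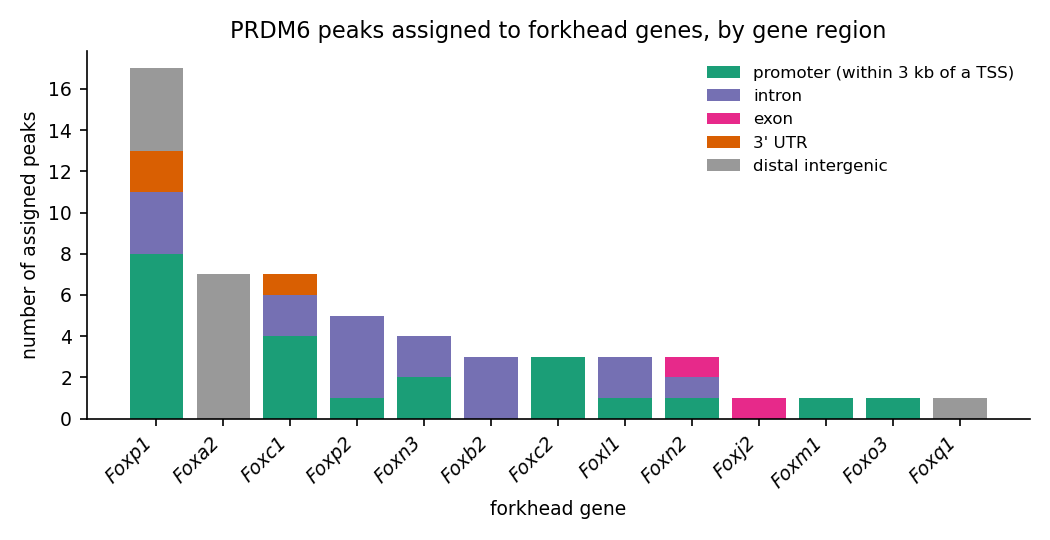
The bars give the number of peaks (vertical axis) assigned to each of the 13 forkhead genes with a peak (horizontal axis), divided by the gene region of the annotation. Foxp1 stands highest with 17 peaks, all 7 peaks of Foxa2 were distal intergenic, and all 3 of Foxc2 were at its promoter.

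Gene length moved with the chance of a peak. Of the 26 forkhead genes up to 10 kb long, 6 had a peak (23.1%), beside 7.55% of all genes of that length. Of the 15 genes between 10 and 100 kb, 4 had one (26.7%), beside 20.4% of all such genes. All 3 forkhead genes over 100 kb, Foxp1, Foxp2 and Foxn3, had peaks, beside 55.3% of all genes of that length, and they held 26 of the 56 peaks. In proportion, the family stood farthest above all genes among the short genes, where Foxc1, Foxc2, Foxa2, Foxb2, Foxl1 and Foxq1 held 24 peaks. All peaks of Foxa2, Foxb2, Foxl1 and Foxq1 lay outside the gene itself.

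The strength of a peak is given as the −log10 p-value of the peak caller MACS2, which the authors ran on each PRDM6 ChIP library against its own input. The replicates are named only by their order in the list, and the matched value is the smaller of both. The irreproducible discovery rate (IDR) estimates the share of false matches among peaks at least as reproducible. A global IDR of 0.05 or less was reached by 3 forkhead peaks (5.36%, 95% Wilson interval 1.84 to 14.6), beside 3.33% of all peaks. Counted by gene, that was 3 of 44 forkhead genes (6.82%), beside 1.6% of all genes.

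The strongest forkhead peak lay inside Foxp2, at chr6:15256911-15258311. Its −log10 p was 20.3 in the first-listed replicate and 19.9 in the second-listed one, so both replicates gave nearly the same value. It ranked 31 among all peaks, had a global IDR of 0.002, and stood 27 fragments high in the second-listed replicate. The annotation placed it 2628 bp from the start of a non-coding Foxp2 transcript and so at a promoter. The nearest Foxp2 start in the basic transcript set of the gene models lay 59947 bp away. The other 4 Foxp2 peaks were intronic and lay downstream of this peak, and all 5 spanned 65880 bp. Their matched values ran from 3.68 to 8.25, all below that of the first.

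The second was at chr6:98774698-98776319, beyond the 3′ end of Foxp1 and outside any gene. Its −log10 p was 14.95 in the first-listed and 13.7 in the second-listed replicate, with a global IDR of 0.0214. The replicate summits lay 684 bp apart, against a median of 123 bp over all forkhead peaks. The third, at chr8:121196081-121196739, was assigned to Foxl1 from 68141 bp downstream of its TSS and lay in an intron of the gene model Gm20388. Its −log10 p was 12.03 (20 fragments) in the first-listed and 17.8 (25 fragments) in the second-listed replicate, with a global IDR of 0.0363. The TEAD motif in its window above was centred at -77 bp from the summit. The peak just outside the limit was in a Foxp1 intron, at chr6:98948902-98950481, with values of 12.95 and 11.81 and a global IDR of 0.0646.

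**Figure D2:**
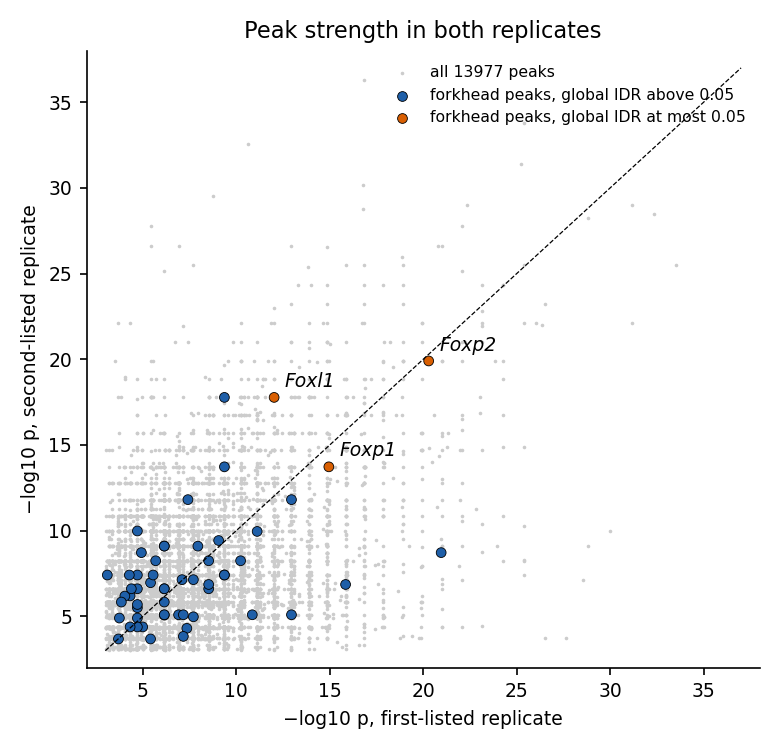
Each point is a peak, with its −log10 p in the first-listed replicate on the horizontal axis and in the second-listed replicate on the vertical axis, and the dashed line marks equal values. The 56 forkhead peaks lie among the grey points of all peaks, and the orange points are the 3 within the IDR limit of 0.05.

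Over the 56 peaks the matched −log10 p had a median of 5.26 (quartiles 4.63 and 7.42, range 3.10 to 19.9), beside a median of 5.53 over all peaks. The median was 6.15 in the first-listed and 6.86 in the second-listed replicate, beside 6.92 and 6.61 over all peaks. The first-listed replicate had the higher value in 27 forkhead peaks and the second-listed in 29. Over the members, the replicates had a Spearman correlation of 0.465 (n = 56 peaks, several of which share a gene), beside 0.263 over all peaks. The lowest score on the list, 48, was held by 26 forkhead peaks (46.4%), beside 41.4% of all peaks. Peak height could be read back from the p-value for 33 forkhead peaks in the first-listed replicate, with a median of 13 fragments (10 to 24). In the second-listed replicate it could be read for 34, with a median of 14 fragments (10 to 27). The corresponding medians over all peaks with a readable height were 14 and 13 fragments. Among such peaks, those of the forkhead genes rested on about as few fragments as those of the whole list. The remaining forkhead peaks have no known height.

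Foxc1 and Foxc2 differed from the other members in where their peaks lay. Foxc1 is a gene of a single exon (chr13:31806633-31812476), and 5 of its 7 peaks followed each other over 4579 bp from its start. They covered 62% of the gene. The peak on the TSS had a −log10 p of 9.37 (17 fragments) in the first-listed and 13.7 (21 fragments) in the second-listed replicate. The next 2 lay wholly on coding sequence, and each had values of 6.15 (13 fragments) and 9.10 (16 fragments). The fourth ran from the coding part into the 3′ UTR, with values of 5.69 and 8.25, and the fifth lay in the 3′ UTR, with values of 8.52 and 6.61. The second-listed replicate was thus higher at 4 of the 5 peaks and lower at the fifth. GC content within 100 bp of these summits ran from 30.3% to 78.1%, so the row of peaks spanned both GC-rich and GC-poor sequence. The other 2 Foxc1 peaks lay 159720 and 201496 bp downstream, in an intron of Gmds, which encodes an enzyme of GDP-fucose synthesis. Both had the lowest score of the list.

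The bases just before the Foxc1 TSS, chr13:31806396-31806632 (GRCm38.p6, plus strand), are shown because the strongest Foxc1 peak begins in them. Capitals mark the 86 bases inside the peak. The stretch of 237 bases had a GC content of 72.6% and 29 CpG sites, 7 of them in the peak.
Foxc1: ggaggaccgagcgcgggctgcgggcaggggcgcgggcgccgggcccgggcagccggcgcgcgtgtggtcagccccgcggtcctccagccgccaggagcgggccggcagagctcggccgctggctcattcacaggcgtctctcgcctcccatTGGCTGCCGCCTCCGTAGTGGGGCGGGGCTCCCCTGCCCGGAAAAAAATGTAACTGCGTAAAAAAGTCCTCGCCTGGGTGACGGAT

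Foxc2 (chr8:121116171-121118895), the closest relative of Foxc1 and also a single-exon gene, had 3 peaks on the gene, which covered 59.8% of it. The first began 79 bp past the TSS and lay over the 5′ UTR and the beginning of the coding sequence, with −log10 p values of 4.71 and 4.91. The second lay wholly on coding sequence, where the window shown above has a GC content of 67.2%, with values of 6.15 and 6.61 (13 fragments in each replicate). The third crossed into the 3′ UTR, with values of 3.10 and 7.42, the lowest matched value among all forkhead peaks. The lower value was always that of the first-listed replicate, and none of the 3 had a global IDR under 0.05.

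Of the forkhead peaks, 10 lay wholly inside annotated exons (17.9%, 95% Wilson interval 10.0 to 29.8), beside 2.46% of all peaks. Foxc1 held 4 of them, Foxc2 held 3, and Foxj2, Foxn2 and Foxp1 held 1 each. The peaks under the names Foxj2 and Foxp1 lay on exons of other genes, Gm5112 and Eif4e3. Without Foxc1 and Foxc2 the share was 6.52% (3 of 46), so most of it came from this pair. The peak of Foxn2 (chr17:88462773-88463167) lay on a coding exon of a gene with introns. It began 60 bp inside an exon of 551 bp and ended 96 bp before its end, with values of 6.15 and 5.08. Of the 26 forkhead genes up to 10 kb, Foxc1 and Foxc2 had at least 50% of their length in peaks (7.69%), beside 0.221% of the 7681 genes of that size. Both quantities, peaks within exons and the covered share of a gene, were chosen after the values at Foxc1 had been seen.

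**Figure D3:**
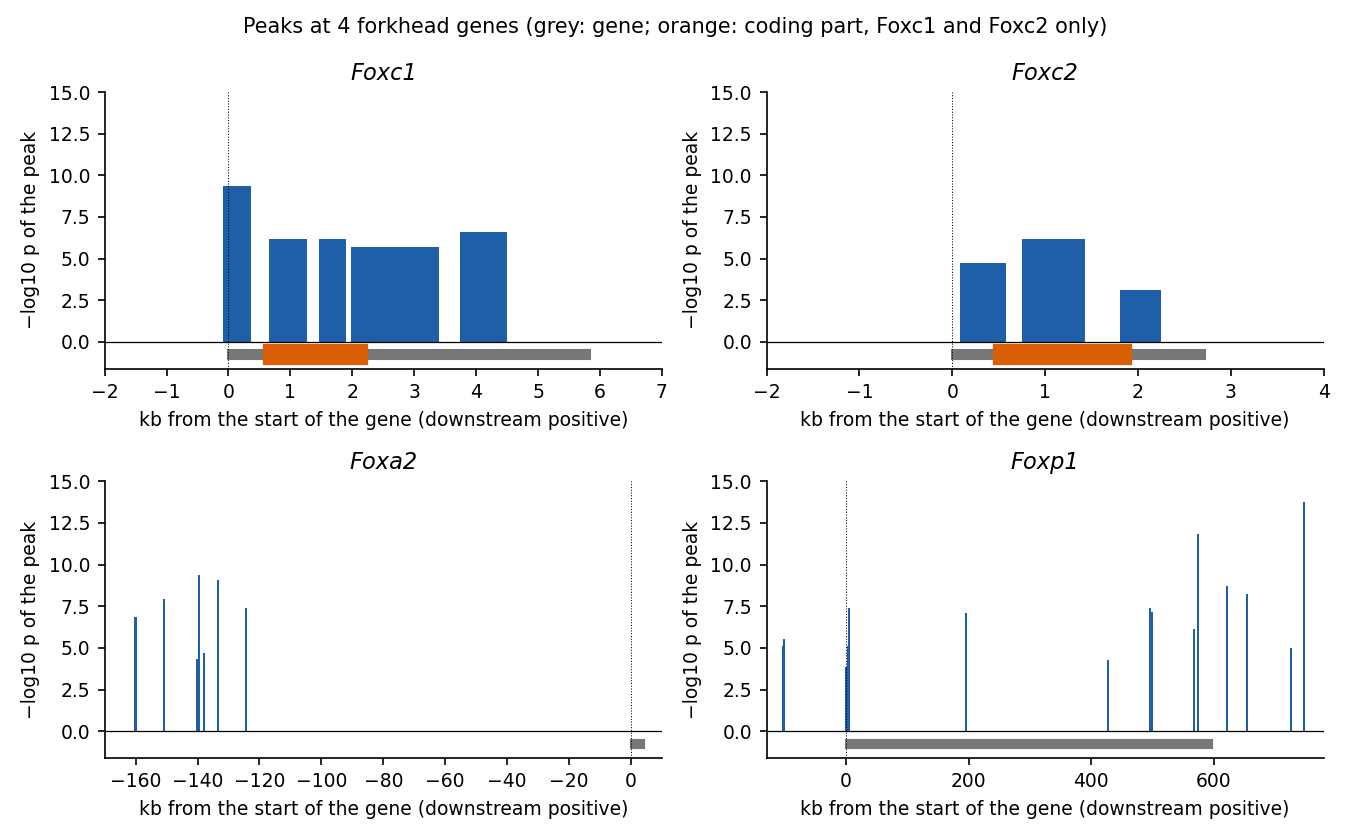
Bars give each peak by its −log10 p (vertical axis) and by its distance from the start of the gene in kb (horizontal axis, downstream positive), with the gene in grey and, for Foxc1 and Foxc2, its coding part in orange. The 5 Foxc1 peaks and 3 Foxc2 peaks lie on the genes themselves, the 7 Foxa2 peaks lie together far upstream, and those of Foxp1 run from its neighbour upstream to beyond its 3′ end. The 2 distant Foxc1 peaks lie outside the panel.

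Both FoxC genes belong to clusters of forkhead genes. The stretch from 100 kb before Foxq1 to 100 kb after Foxc1, which also holds Foxf2, had 6 peaks, or 13.1 per Mb, beside 5.31 per Mb over the genome. The corresponding stretch of Foxf1, Foxc2 and Foxl1 had 5 peaks, or 20.3 per Mb. Of the 6 peaks, 5 were the row on Foxc1 described above, and of the 5 peaks, 3 were those on Foxc2. Both rates thus rested largely on neighbouring peaks of a single gene. Within both stretches the peaks fell on or near some genes only. No peak was assigned to Foxf1 or Foxf2, and the nearest peaks lay 31864 bp from the Foxf1 TSS and 107025 bp from that of Foxf2. Foxl1 had a peak 2297 bp upstream of its TSS, where the replicates differed, with a −log10 p of 12.95 (21 fragments) in the first-listed and 5.10 (11 fragments) in the second-listed. Its remaining peak, 133213 bp downstream, had values of 8.52 and 6.86. Foxq1 had a single peak, 37343 bp upstream, with values of 4.71 (11 fragments) and 9.98 (17 fragments). The AP-1 motif in the Foxq1 window above was centred 5 bp from the summit of the matched peak, but the replicate summits lay 241 bp apart.

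Foxp1 (chr6:98925338-99522721, minus strand) had peaks grouped at its start, in its 3′ part and past its end, with a single peak in the long stretch between. A run of 5 peaks covered 82.4% of 5765 bp at the start of the gene. Their matched values ran from 3.83 to 7.42, and 4 of the 5 had the lowest score of the list. The strongest of the run had values of 7.42 and 11.8, and the weakest, 7.17 and 3.83, was the widest of all forkhead peaks at 2169 bp. Further inside, at shorter transcripts, a pair of peaks within 3 kb of a TSS had values of 7.71 and 7.14 for one and 9.37 and 7.42 for the other. Another such peak had 4.28 and 7.42. In the 3′ part of the gene, 2 intronic peaks had values of 12.95 and 11.81 and of 6.15 and 6.61. One further intronic peak had 7.10 and 7.14.

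Beyond the 3′ end of Foxp1 lay 4 peaks with matched values of 4.98 to 13.7 and a median of 8.48, above the median of 4.39 of the run at its start. One of them, at chr6:98901115-98901980, differed widely between replicates, with 20.96 in the first-listed and 8.72 in the second-listed. The last 2 peaks under the name Foxp1 lay on Eif4e3, which encodes a cap-binding protein, and the transcript to which the annotation tied them belongs to the gene model Gm20696 in GENCODE M21. Their values were 5.56 and 7.42 for one and 7.17 and 5.10 for the other. By the nearest coding TSS they were the only forkhead peaks that would go to another gene. Foxp1 would then keep 15 peaks.

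The 7 peaks of Foxa2 lay within 36323 bp of each other in intergenic sequence and began 124104 bp upstream of its TSS. None lay closer. The strongest, at chr2:148186210-148186869, had a −log10 p of 9.37 (17 fragments) in the first-listed and 17.8 (25 fragments) in the second-listed replicate, with summits 24 bp apart. The peak at chr2:148179999-148180827 was even between replicates, with 9.06 and 9.43, whereas the farthest, at chr2:148206596-148207395, had 15.8 and 6.86. The remaining 4 had matched values of 4.32 to 7.95. The median over the 7 was 7.42, the upper quartile of all forkhead peaks.

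Foxb2, which is expressed in the embryonic nervous system, had 3 peaks 22621 to 36985 bp upstream, all in an intron of the non-coding gene AC128703.1. The middle one had values of 11.1 and 9.96, and its window above holds 2 AP-1 motifs to the right of the summit. The other 2 had matched values of 5.42 and 3.68. Foxn3, a repressor linked to cell cycle checkpoints, had 4 peaks on its gene with matched values of 4.71 to 5.10. One overlapped a TSS and had 4.71 (11 fragments) and 7.42 (14 fragments), and one in an intron had 10.9 and 5.10. At Foxo3, a FoxO gene of the insulin and stress response, the single peak lay 1248 bp upstream, had values of 3.75 and 4.91 and a GC content of 73.1%, and holds a forkhead motif near the right end of the window above. The single peak of Foxm1 lay 527 bp from a TSS, with 7.36 and 4.30. That of Foxj2 lay 8032 bp upstream on the exon of another gene model, with 3.85 and 5.84. The remaining peaks of Foxn2 had values of 4.71 and 4.39 near its TSS and 4.93 and 8.72 at 98632 bp upstream. All these peaks except the middle one of Foxb2 had matched values at or below 5.42.

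No peak was assigned to the other 31 genes. They included Foxa1, Foxa3, Foxb1, Foxd1, Foxd2, Foxd3, Foxd4, Foxe1, Foxe3, Foxf1, Foxf2, Foxh1, Foxi1, Foxi2, Foxi3, Foxj1, Foxj3, Foxk1, Foxk2, Foxl2, Foxn1, Foxn4, Foxo1, Foxo4, Foxo6, Foxp3, Foxp4, Foxr1, Foxr2 and Foxs1. The FoxC pair was the only subfamily of more than 1 gene in which every member had a peak, whereas FoxD (4 genes), FoxI (3 genes), FoxE, FoxF, FoxK and FoxR (2 genes each) had none. Of the 4 FoxO genes only Foxo3 had one, and of the 4 FoxP genes Foxp1 and Foxp2 did. The nearest peak lay a median of 175855 bp from the TSS of these 31 genes (up to 2143823 bp at Foxr2), and 6 of them had a peak within 100 kb. Foxk1 had a peak on its gene body that the annotation gave to its neighbour Ap5z1. Absence from the list says that no matched peak was called, not that the protein was absent. If each peak went to the nearest coding TSS, the family would hold 62 peaks at 14 genes, with Foxo1 added through peaks 339353 and 372941 bp away.

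The share of forkhead peaks at promoters rested mostly on 3 genes. The annotation put 22 of 56 at promoters (39.3%, 95% Wilson interval 27.6 to 52.4), beside 21.3% of all peaks. Foxp1, Foxc1 and Foxc2 held 15 of the 22, and over the other 10 genes the share was 24.1% (7 of 29), near that of all peaks. Without Foxp1 alone it was 35.9% (14 of 39). With a promoter limit of 1 kb it was 23.2%, beside 14.7% of all peaks. A TSS was overlapped by 6 (10.7%), beside 6.64%, and these were 4 peaks of Foxp1 and 1 each of Foxc1 and Foxn3. Distal intergenic sequence held 12 (21.4%), beside 37.2%, of which 7 belonged to Foxa2 and 4 to Foxp1. Introns held 17 (30.4%), beside 35.9%. A distance over 100 kb from the TSS was found for 12 peaks (21.4%), beside 19.3%. The 22 promoter peaks had a median −log10 p of 4.90, beside 5.42 over all promoter peaks, and the 34 others had 5.70, beside 5.67. The promoter peaks of the family were richer in CpG, with a median GC content of 56% and 9 CpG sites within 100 bp of the summit, beside 48.8% and 4 over all promoter peaks.

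**Figure D4:**
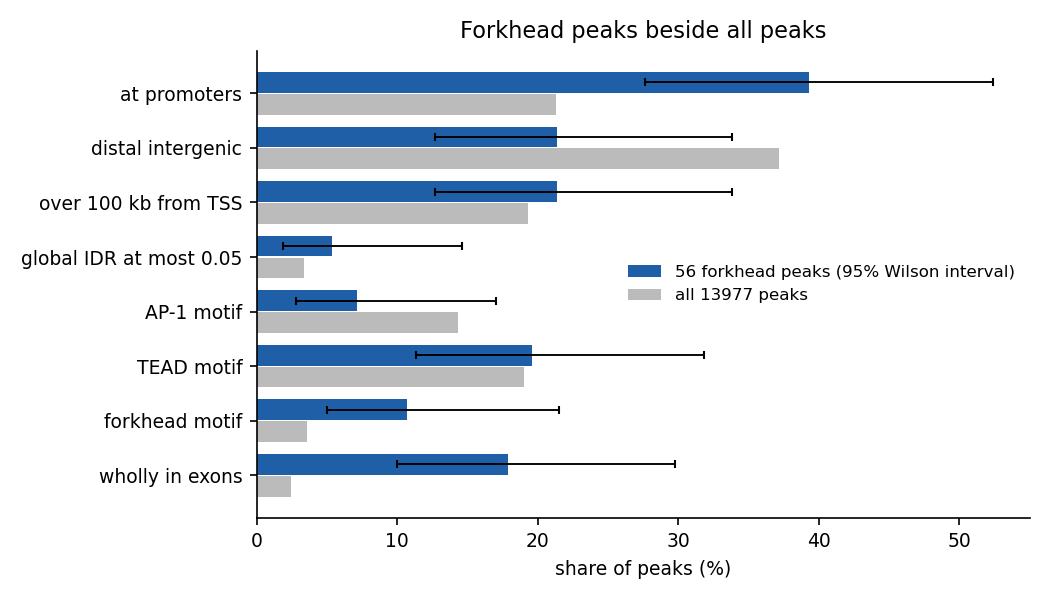
Bars give the share of peaks in percent (horizontal axis) with each feature, for the 56 forkhead peaks in blue with 95% Wilson intervals and for all 13977 peaks in grey. The blue bars reach farther for promoters (39.3% beside 21.3%), forkhead motifs (10.7% beside 3.54%) and peaks wholly in exons (17.9% beside 2.46%). A smaller difference in that direction is that of the IDR limit (5.36% beside 3.33%). They reach less far for distal intergenic peaks (21.4% beside 37.2%) and AP-1 motifs (7.14% beside 14.3%). Several Foxc1 and Foxc2 peaks count both at promoters and in exons.

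Of the motifs searched on both strands within 100 bp of the summit, the AP-1 motif TGACTCA, bound by Fos and Jun proteins, was found in 4 forkhead peaks (7.14%, 95% Wilson interval 2.81 to 17), beside 14.3% of all peaks. These were 1 peak each of Foxb2, Foxn3, Foxp1 and Foxq1. The TEAD motif GGAATG, bound by the TEAD factors of the Hippo pathway, was found in 11 (19.6%), beside 19% of all peaks. Foxp1 held 3 of these, and Foxa2, Foxc1 and Foxl1 held 2 each. The forkhead motif GTAAACA was found in 6 (10.7%, 95% Wilson interval 5.0 to 21.5), beside 3.54% of all peaks. Foxp1 held 3 of these and Foxb2, Foxo3 and Foxp2 held 1 each, and all 6 had matched values of 5.56 or less. Of the 3 under the name Foxp1, 1 was a peak on Eif4e3. In windows of 50 bp GTAAACA was found in 3.57%, beside 1.71%, and in windows of 250 bp in 16.1%, beside 8.44%. The core of 6 bases, TAAACA, was found within 100 bp in 21.4%, beside 16%, and within 250 bp in 33.9%, beside 37.4%, so the direction at 250 bp differed between the core and GTAAACA. For GTAAACA, around the summits of the first-listed replicate the share was 7.14% (4 peaks), beside 3.64% of all peaks, and around those of the second-listed it was 3.57% (2 peaks), beside 3.42%. The pattern that the study links to PRDM6 is printed ambiguously and was read here as TTTCAT or TTTCCT, which may not be the letters meant. This sequence was found in 21 (37.5%), beside 43.1%. The CArG box, which serum response factor binds in SMC genes, was found in 1 (1.79%), beside 1.41%, and that peak belonged to Foxb2. A match is a description of letters and not a binding site.

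RefSeq promoter sequences (GRCm38.p6, 250 bases before to 50 after the start) matched 28 of the 44 forkhead genes, with 33 entries. They had a median of 22 CpG sites and a GC content of 62.7%, beside 7 and 53% over all 32619 entries. Only the entries of Foxc1 and Foxp1 overlapped a peak. Foxc2, Foxl1, Foxm1, Foxn2, Foxp2 and Foxq1 had peaks but no entry, so their promoters could not be read here. The share with the sequence TTTCAT or TTTCCT was 9.09%, beside 38.9% of all entries, and the forkhead motif was in 1 entry (3.03%), beside 3.67%. The AP-1 motif was in 2 (6.06%), beside 5.22%, and the TEAD motif in 4 (12.1%), beside 14.6%.

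A list of 40 genes that act with forkhead factors was read beside the family. Of these, 23 had a peak (57.5%), beside the 19.9% of all genes, with 82 peaks, and none had a peak within the IDR limit of 0.05, beside 1.6%. These genes were long, with a median of 53655 bp beside 17429 bp over all genes, and the part of length in the count was not tested. Among the kinases and regulators of FoxO proteins 8 of 10 had a peak. Pik3r1, the regulatory subunit of phosphoinositide 3-kinase, had 10 and the receptor gene Igf1r had 8. Akt1 and Akt2 had none. Among FoxO target genes 7 of 11 had a peak, led by Trib1 with 8 and Sesn3 with 4, and Cdkn1a had none. Of the hedgehog pathway genes 3 of 7 had one. They were Gli3 with 9, the receptor gene Ptch1 with 4 and Gli2 with 3, whereas Shh, Smo, Gli1 and Hhip had none. Of the partners of forkhead proteins 3 of 7 had a peak, including the SMC coactivator gene Myocd with 1 peak of 4.71. Of the FoxC targets in vessels 2 of 5 did, Hey2 with 4 peaks and Itgb3 with 1. The highest matched value in the list was 10.4, shared by Igf1r, Insr and Sesn3, which was below all 3 forkhead peaks that passed the IDR limit.

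Other families of developmental transcription factors were set beside the forkhead genes as counts with no test. A peak was assigned to 6 of 19 Sox genes (31.6%), 2 of 13 Tbx genes (15.4%) and 9 of 17 Klf genes (52.9%), beside 13 of 44 forkhead genes (29.5%). The share of promoter peaks was 34.4% of 32 Sox peaks, 37.5% of 8 Tbx peaks and 26.4% of 53 Klf peaks, beside 39.3% of forkhead peaks. Peaks within the IDR limit of 0.05 numbered 3 in the Klf family, as among the forkhead genes, and 0 in the Sox and Tbx families. In these counts the forkhead genes lay within the range of the other families for genes with a peak and slightly above it for promoter peaks.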

How the data were processed

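ChIP-Seq peaks of FLAG-tagged PRDM6 were analysed for 2 PRDM6 ChIP and 2 Input libraries. The authors aligned reads to mm10 with BWA (mapping quality of at least 13), called peaks per library against its own input with MACS2 (p-value limit 0.001), matched both lists by IDR and annotated each peak with its nearest TSS. Tool versions are not given in the sources used here. The deposited −log10 p-values are those of MACS2, and the deposited score is a scaled global IDR, where 540 stands for 0.05. Signal and q-value columns held placeholders and were not used. The annotation's deposited q-value column held the second-listed replicate's −log10 p.

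Here, heights in fragments were read back where a −log10 p lay within 0.0002 of a Poisson tail with a mean of 2.61 (first-listed) or 2.39 (second-listed replicate); the total read depth is not given in the sources used here. Gene models were GENCODE M21 and sequence RefSeq GRCm38.p6. A coding TSS here was the start of any transcript of a protein-coding gene in the GENCODE basic set. Coding transcripts outside that set did not count. Scripts ran in Python 3.11.15 with pandas 2.3.3, NumPy 2.4.6 and SciPy 1.17.1. Height and motif searches were tested on simulated data. No test was run, since the list gives 1 set of matched peaks. The summit of a matched peak was the midpoint of both replicate summits in 44 of 56 forkhead peaks. Every forkhead gene with a peak is described, in most detail those with a promoter peak, a peak within the IDR limit or many peaks and those of both clusters, with some peaks given as ranges. Alternatives were other IDR limits, promoter distances, motif letters and windows, and gene assignments. The forkhead genes, gene lists, motifs and alternatives were chosen with earlier results of these data known. Some items are not reported here.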

Additional observations from a re-analysis of the deposited data

How the results depend on the processing

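At a global IDR of at most 0.05, 3 peaks at 3 genes remained, with a median −log10 p of 13.7 and shares of 0% for the AP-1 motif, 33.3% for TEAD and 0% for the forkhead motif, and 0 genes of the forkhead-related list had a peak. At 0.01, 1 peak at 1 gene remained. Among peaks above the overall median −log10 p, 27 peaks at 7 genes and 14 genes of the related list remained. The first-listed and second-listed replicates alone gave median −log10 p values of 6.15 and 6.86. A promoter limit of 1 kb gave 23.2% of peaks at promoters (14.7% of all peaks). Windows of 50 bp gave 7.14% for TEAD (10.4% of all peaks) and 3.57% for the forkhead motif (1.71%), and windows of 250 bp gave 25% for AP-1 (30.7%) and 33.9% for TEAD (38.4%). The following were added after the data had been seen. Summits of the second-listed replicate gave 1.79% for AP-1 (12.3% of all peaks) and 3.57% for the forkhead motif (3.42%), and those of the first-listed gave 3.57% (13.3%) and 7.14% (3.64%). Leaving out Foxc1 and Foxc2 gave 6.52% of peaks wholly in exons (2.41%). Leaving out Foxp1 gave 35.9% at promoters (21.3%), and leaving out Foxp1, Foxc1 and Foxc2 gave 24.1%. The cause of these shifts beyond the smaller number of peaks or the size of the window was not tested. Merging peaks within 1 kb (42 peaks), assignment by the nearest coding TSS (62) and a limit of 100 kb (44) stayed within 1.5 times the count given.

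No paired analysis was possible because the list holds only peaks matched between both replicates and no value of the Input group, so no result comes from a test. For the same reason the list could not be rebuilt without 1 replicate. Forkhead peaks whose height could be read back held 10 to 27 fragments, and a gene without a peak may have had weaker signal.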
